A study of Mus musculus with 6 samples.

Results

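The genes described here are 10 regulators of the G1 phase of the cell cycle in Lewis lung carcinoma (LLC) cells, a mouse tumour line, exposed to STM2457 or to its solvent. They were chosen by symbol and by role: the D-type cyclins Ccnd1, Ccnd2 and Ccnd3, the E-type cyclins Ccne1 and Ccne2, the kinases Cdk4 and Cdk6, the Cip/Kip inhibitors Cdkn1a and Cdkn1b, and the INK4 inhibitor Cdkn2c. The choice was made with earlier results of these data known. All 10 symbols were found among the 55367 rows of the expression table, and all 10 were among the 12618 genes expressed highly enough to be tested (a mean of at least 10 reads per library). STM2457 is a small molecule that blocks catalysis by METTL3, which places the modification N6-methyladenosine (m6A) on messenger RNA. Wild-type LLC cells grown in medium with fetal bovine serum received DMSO in 3 samples and 5 µM STM2457 in 3 samples, each for 46 h. Total RNA was made into mRNA-Seq libraries and sequenced. Whether the 3 samples of a group were separate cultures is not in the labels, so the p-values speak only to the spread among these samples, possibly a technical one. A single line, a single dose and a single time were sampled.

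D-type cyclins are made in response to growth signals and activate the kinases CDK4 and CDK6, which begin to phosphorylate the retinoblastoma protein RB. E-type cyclins with CDK2 continue that phosphorylation, which frees E2F transcription factors to switch on genes for DNA replication, the E-type cyclin genes among them. INK4 proteins such as p18 (Cdkn2c) bind CDK4 and CDK6 and block them, whereas p21 (Cdkn1a) and p27 (Cdkn1b) inhibit CDK2 complexes and also bind the complexes of the D-type cyclins.

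The libraries held 17671719 to 17917208 reads in genes. Mettl3, the gene of the enzyme that STM2457 targets, had 469, 601 and 540 normalised reads with DMSO and 499, 451 and 513 with STM2457. Its groups overlapped and its difference did not pass the test (limma adjusted p = 0.15), and since the compound acts on the protein, this level is no check of the labels. Tox4 overlaps 18.4% of the exon bases of Mettl3 on the opposite strand. The epithelial markers Epcam, Cdh1 and Nkx2-1 were at 0 in all 6 libraries, none of 7 epithelial markers was expressed highly enough to be tested, and their summed level was 0.679 to 0.905 CPM (reads scaled to the library total) with DMSO and 0 to 0.559 with STM2457. The 6 mesenchymal and fibroblast markers, with Vim the highest, were all tested and summed to 5277 to 5314 CPM with DMSO and 4174 to 4279 with STM2457. Of 8 leukocyte markers only Cd68 was tested, Cd3e, Adgre1 and Itgam were at 0, and the list summed to 5.71 to 6.39 CPM with DMSO and 5.54 to 6.87 with STM2457. Markers of endothelial cells and of red cells summed to under 1 CPM in every library, and the part of any of these lists in the results below was not tested. The libraries pool cells of every cycle phase, so a different share of cells in a phase and a different amount of RNA per cell cannot be told apart.

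After STM2457, both E-type cyclins rose, with Ccne1 at 1.36 times its DMSO level, and both Cip/Kip inhibitors fell, to 0.732 times for Cdkn1a and 0.733 times for Cdkn1b. The D-type cyclins split, with Ccnd3 and Ccnd2 higher and Ccnd1 lower, and so did their kinases, with Cdk6 higher and Cdk4 lower. All 10 genes passed the test, 5 in each direction, in a table where 56.3% of the tested genes passed, 30.7% higher and 25.7% lower. In all 10 the DMSO and STM2457 libraries did not overlap, which was so for 61.8% of the tested genes (33.4% with the treated libraries higher and 28.4% with them lower). All 10 stood between the 53.8th and 98.3rd percentile of level among tested genes, and these shares are not matched for level. As the genes were also chosen with earlier results known, 10 of 10 is not a measured trait of G1 regulators. With the values centred on each library's upper quartile instead, the log2 differences, STM2457 minus DMSO, of all genes shifted by a median of -0.04. Of the called genes 36.9% were then higher, against 54.4%. The median size of the log2 fold was 0.25 for the 10 genes and 0.21 for all tested genes. Folds are ratios of normalised reads, STM2457 over DMSO, fitted with limma-voom, whereas log2 differences and adjusted p-values are from limma on the deposited log2 values, which are shrunken and understate the change.

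**Figure D1:**
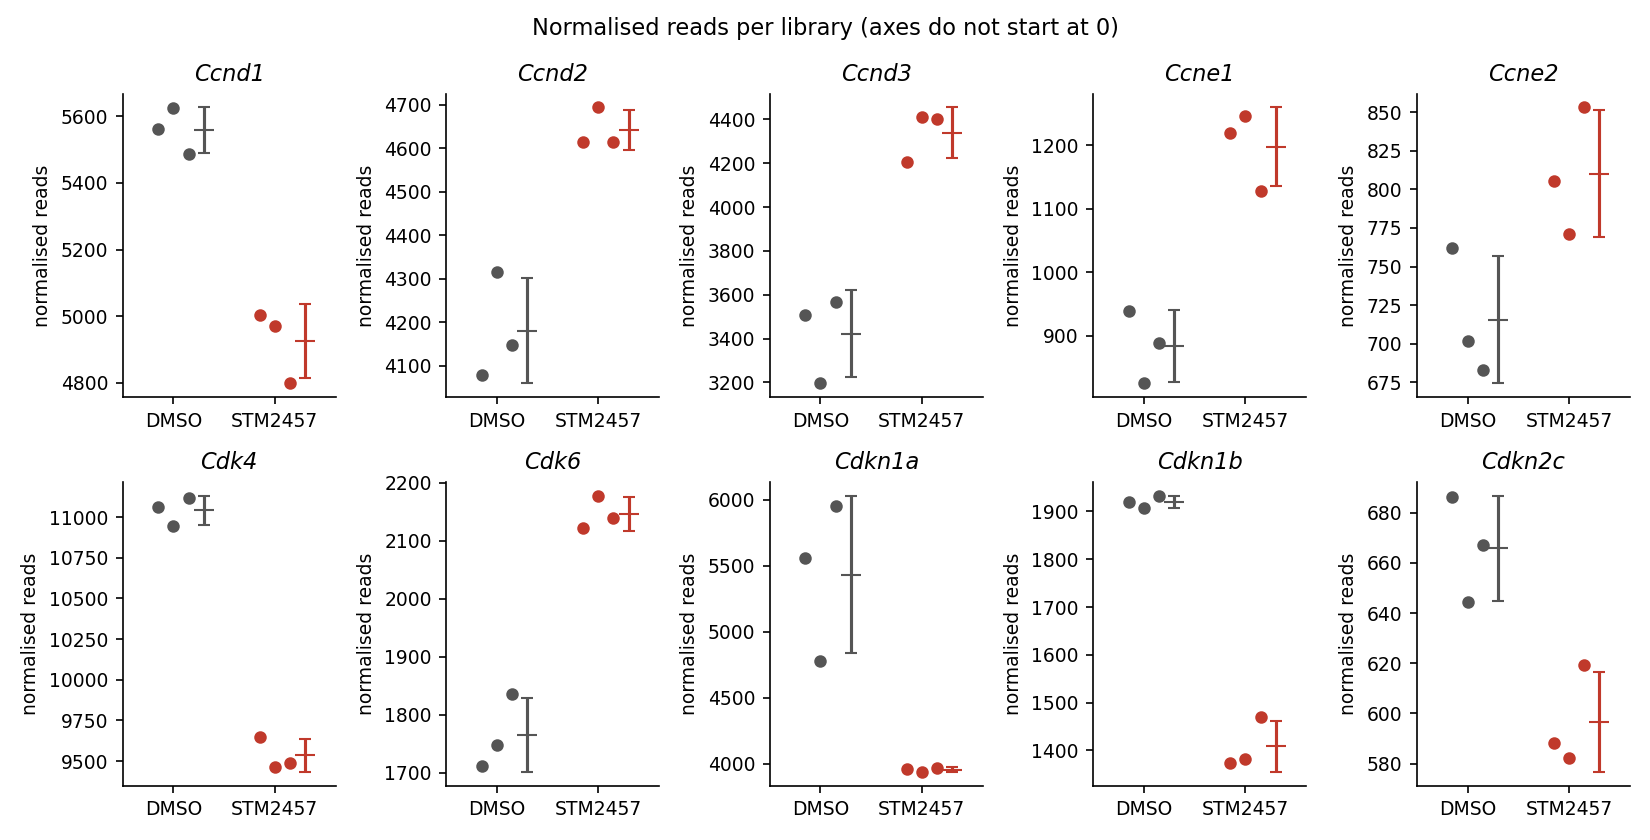
Normalised reads of the 10 genes in each library (vertical axes, not starting at 0) for DMSO (grey) and STM2457 (red), with points for single libraries and bars for the mean ± SD of 3 libraries. The groups do not overlap in any of the 10 panels; the gap is narrowest for Ccne2 (762 against 771 reads), and the DMSO libraries are widest apart for Cdkn1a (4782 to 5954 reads).

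Ccnd1, which encodes the D-type cyclin most often amplified in human tumours, lies at chr7:144929931-144939925 (minus strand, GRCm38). It had 5561, 5625 and 5487 normalised reads with DMSO and 5005, 4971 and 4799 with STM2457. All 3 treated libraries were below all 3 controls, and Ccnd1 fell to 0.886 times (log2 fold -0.17, SE 0.04; deposited log2 difference -0.10, SE 0.02; limma adjusted p = 0.00023). Ccnd2 (chr6:127125162-127152193, minus strand), whose protein pairs with the same kinases, went the other way. It had 4079, 4315 and 4148 normalised reads with DMSO and 4615, 4694 and 4615 with STM2457. The treated libraries were the 3 highest, but the rise was small, at 1.11 times (log2 fold 0.15, SE 0.04; deposited log2 difference 0.09, SE 0.02; limma adjusted p = 0.0012). With upper-quartile centring its deposited difference was 0.05 (limma adjusted p = 0.041). Both genes share exon bases with genes on the opposite strand. LTO1 overlaps 23.4% of the exon bases of Ccnd1 and had 257 ± 9.69 normalised reads with DMSO and 247 ± 20.4 with STM2457 (SD, n = 3; limma adjusted p = 0.56). The 7.9% of Ccnd2 is shared with 9330179D12Rik and Gm43126, both too low to be tested.

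Ccnd3 (chr17:47505051-47599691, plus strand), the D-type cyclin best known from lymphocytes and muscle, changed most of the 3. It had 3505, 3196 and 3567 normalised reads with DMSO and 4207, 4410 and 4404 with STM2457. The lowest treated library stood well above the highest control, and Ccnd3 rose to 1.27 times (log2 fold 0.34, SE 0.04; deposited log2 difference 0.20, SE 0.02; limma adjusted p = 1.8e-07). Bysl, a gene for ribosome assembly on the opposite strand, shares 4.1% of the exon bases of Ccnd3 and rose to 1.74 times (1011 ± 30.3 against 1765 ± 74.9 normalised reads, SD, n = 3; limma adjusted p = 5.4e-13). No source used here says whether the counting used strand, so reads in that stretch cannot be told apart.

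The opposite moves of Ccnd1 and of Ccnd2 and Ccnd3 changed the make-up of the D-type cyclin RNA. How far its sum changed depended on the division by exon length. Divided by exon length, the 3 genes summed to 2015 ± 2.44 normalised reads per kb with DMSO and 2034 ± 22.9 with STM2457 (SD, n = 3), a ratio of 1.01. Undivided, the summed reads rose from 13161 ± 35.9 to 13906 ± 146 (SD, n = 3), a ratio of 1.06. The exon length covers all annotated exons, which for Ccnd3 is 8775 bases, against 2113 in the transcript used for GGACT below. A shorter length would give Ccnd3 more weight in the sum and in the shares. Per exon length, Ccnd1 made up 58.6%, 59.2% and 57.9% of the summed reads per kb in the DMSO libraries and 52.3%, 51.3% and 50.7% in the STM2457 libraries. The treated shares were all lower, with a difference of -7.2 percentage points (two-sided exact permutation p = 0.1, the smallest that 3 against 3 libraries can give). The mean share of Ccnd3 went from 19.4% to 24.3% and that of Ccnd2 from 22.1% to 24.3%, so that on this length both stood level after treatment. In undivided reads the mean share of Ccnd1 was 42.2% with DMSO and 35.4% with STM2457.

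Ccne1 (chr7:38097984-38107534, minus strand) encodes cyclin E1, the activator of CDK2 at the start of S phase, and showed the largest rise of the 10 genes. It had 938, 825 and 888 normalised reads with DMSO and 1220, 1245 and 1128 with STM2457. Every treated library was above every control, and Ccne1 rose to 1.36 times (log2 fold 0.44, SE 0.05; deposited log2 difference 0.24, SE 0.03; limma adjusted p = 1.8e-07). Its paralogue Ccne2 (chr4:11191351-11204779, plus strand) had 762, 702 and 683 normalised reads with DMSO and 806, 771 and 853 with STM2457. The lowest treated library was only just above the highest control, and Ccne2 rose to 1.13 times (log2 fold 0.18, SE 0.06; deposited log2 difference 0.09, SE 0.03; limma adjusted p = 0.0088). That call was lost with upper-quartile centring (adjusted p = 0.10), without DMSO replicate 3 (0.056) and without STM2457 replicate 3 (0.071). Ints8, on the opposite strand over 17.4% of the exon bases of Ccne2, rose to 1.24 times (limma adjusted p = 0.00037).

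Together the E-type cyclins summed to 537 ± 30.7 normalised reads per kb with DMSO and 682 ± 12.1 with STM2457 (SD, n = 3), a ratio of 1.27. Ccne1 held 61.8%, 60.7% and 63.1% of that sum with DMSO and 66.5%, 67.9% and 63.4% with STM2457. The shares did not overlap, but STM2457 replicate 3 was nearly level with DMSO replicate 3 (two-sided exact permutation p = 0.1, the smallest possible).

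**Figure D2:**
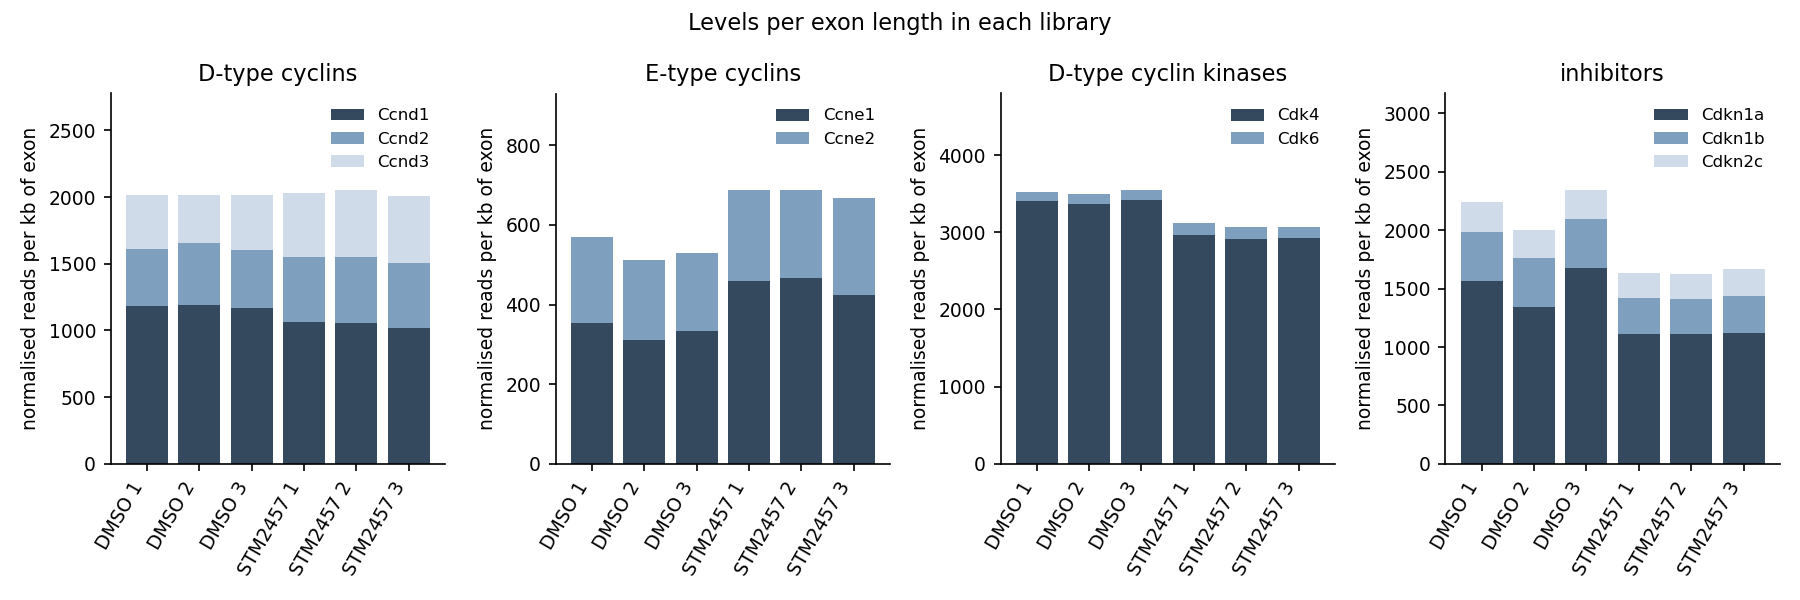
Normalised reads per kb of exon (vertical axes, from 0) in each of the 6 libraries, stacked by gene within the D-type cyclins, the E-type cyclins, the D-type cyclin kinases and the 3 inhibitors. On the length of all annotated exons, the D-type cyclin bars stay near 2000 while the Ccnd1 segment shrinks. Their reads undivided by length rose (ratio 1.06), and a shorter length would give Ccnd3 more weight. The E-type bars are taller with STM2457, and the kinase and inhibitor bars are shorter.

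Cdk4 (chr10:127063534-127067920, plus strand), the main kinase partner of the D-type cyclins in these cells by RNA level, was the most abundant of the 10 genes. It had 11059, 10943 and 11120 normalised reads with DMSO and 9650, 9463 and 9490 with STM2457. The groups were far apart for their spread, and Cdk4 fell to 0.864 times (log2 fold -0.21, SE 0.03; deposited log2 difference -0.13, SE 0.02; limma adjusted p = 1.5e-05). Tspan31 overlaps 19.7% of the exon bases of Cdk4 on the opposite strand and had 1153 ± 4.38 normalised reads with DMSO and 1163 ± 26.1 with STM2457 (SD, n = 3; limma adjusted p = 0.82). For Cdk6 the overlap was 2.6%, with Gm17590, a gene too low to be tested. Cdk6 (chr5:3341485-3531008, plus strand), which encodes the sister kinase, had 1712, 1748 and 1835 normalised reads with DMSO and 2122, 2177 and 2139 with STM2457. Its treated libraries were all higher, and Cdk6 rose to 1.22 times (log2 fold 0.28, SE 0.04; deposited log2 difference 0.16, SE 0.02; limma adjusted p = 2.4e-06). The rise of Cdk6 did not offset the fall of Cdk4 in their sum, which went from 3524 ± 30.4 to 3088 ± 29.4 normalised reads per kb (SD, n = 3; ratio 0.876). Cdk4 held 96.4% ± 0.11 of that sum with DMSO and 95.0% ± 0.11 with STM2457 (SD, n = 3; two-sided exact permutation p = 0.1, the smallest possible). In undivided reads the shares were 86.2% and 81.6%.

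The promoter of Cdk4 is shown because the E-box CACGTG, the letters that MYC and related factors bind, is repeated in it. The 250 bases before the RefSeq start of Cdk4 (chr10:127063285-127063534, plus strand, GRCm38.p6, sequence from RefSeq) read as follows, with the E-boxes in capitals.
Cdk4: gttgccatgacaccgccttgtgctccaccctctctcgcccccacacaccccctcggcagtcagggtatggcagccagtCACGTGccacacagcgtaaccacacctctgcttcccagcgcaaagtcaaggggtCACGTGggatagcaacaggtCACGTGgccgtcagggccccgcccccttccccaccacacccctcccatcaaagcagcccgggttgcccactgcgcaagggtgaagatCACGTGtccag
These letters stand 172, 118, 98 and 11 bases before the start, on both strands at once because CACGTG is its own reverse complement. At least 1 CACGTG was in 6.0% of 32851 promoter windows of that length and in 8.3% of those of tested genes, and 7 windows held at least 4. Of the 7 genes matched to a window (Ccnd3, Ccne1, Cdk4, Cdk6, Cdkn1a, Cdkn1b and Cdkn2c), only Cdk4 and Cdk6 held it, Cdk6 once, 220 bases before the start. A match describes the letters only, and binding was not measured. The letters GGGCGG, bound by SP1, were in at least 1 window of 6 of the 7 genes, all but Cdk6, counting both strands. They were in 32.7% of all windows and 58.3% of those of tested genes. The 7 genes had 10 windows, and Cdkn1a and Cdkn2c each also had a window without these letters. The count by gene is therefore not on the same footing as the shares by window.

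Cdkn1a (chr17:29090976-29100727, plus strand) encodes p21, which p53 induces after DNA damage. It had 5560, 4782 and 5954 normalised reads with DMSO and 3962, 3941 and 3972 with STM2457. The controls were spread widely and the treated libraries lay close together (5432 ± 596 against 3958 ± 16.3 normalised reads, SD, n = 3), yet even the lowest control was above all treated libraries. Cdkn1a fell to 0.732 times (log2 fold -0.45, SE 0.07; deposited log2 difference -0.265, SE 0.04; limma adjusted p = 0.00043). DMSO replicate 2 held the low control value and was below the mean of the other controls in 8 of the 10 genes. Without it the deposited difference of Cdkn1a was -0.32 (limma adjusted p = 6.3e-13). Without DMSO replicate 1 that difference was -0.25 (limma adjusted p = 0.011, the largest of any alternative). Without DMSO replicate 3 it was -0.22 (limma adjusted p = 7.5e-06). AC167363.2, on the opposite strand, overlaps 7.7% of the exon bases of Cdkn1a.

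Cdkn1b (chr6:134920401-134925513, plus strand) encodes p27, an inhibitor that accumulates in quiescent cells, and its change had the smallest adjusted p of the 10. It had 1920, 1908 and 1933 normalised reads with DMSO and 1373, 1382 and 1470 with STM2457. The controls were almost equal and the treated libraries all lay far below them, at 0.733 times (log2 fold -0.45, SE 0.04; deposited log2 difference -0.25, SE 0.02; limma adjusted p = 2.6e-09). Per kb, the 2 Cip/Kip genes summed to 1951 ± 171 normalised reads with DMSO and 1423 ± 15.2 with STM2457 (SD, n = 3), a ratio of 0.73. By Pearson's r of the deposited values over the 6 libraries, the tested genes most like Cdkn1b were Mus81 (r = 0.9988), Sbf2 (0.9987) and Mmp19 (0.9981). Their folds were 0.67, 0.695 and 0.61, but likeness of this kind was common: 1090 tested genes had an r above 0.95 with Cdkn1b.

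Cdkn2c (chr4:109660876-109667189, minus strand), the gene of p18, had 686, 644 and 667 normalised reads with DMSO and 588, 582 and 619 with STM2457. Its groups were close but did not overlap, and Cdkn2c fell to 0.896 times (log2 fold -0.16, SE 0.06; deposited log2 difference -0.08, SE 0.03; limma adjusted p = 0.018). The call was lost without DMSO replicate 1 (adjusted p = 0.058), without STM2457 replicate 1 (0.062) and without STM2457 replicate 2 (0.076). Cdkn2a (p16 and Arf) and Cdkn2b (p15), like the Cip/Kip gene Cdkn1c (p57) and the germ-line cyclin gene Ccna1, had 0 reads in all 6 libraries, which allows up to 3 reads, or 0.167 to 0.170 CPM, and these 4 genes were named after their values were seen. Cdkn2d (p19), named after its values were seen, had 554 ± 32.7 normalised reads with DMSO and 601 ± 15.7 with STM2457 (SD, n = 3) and did not pass the test (limma adjusted p = 0.094).

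**Figure D3:**
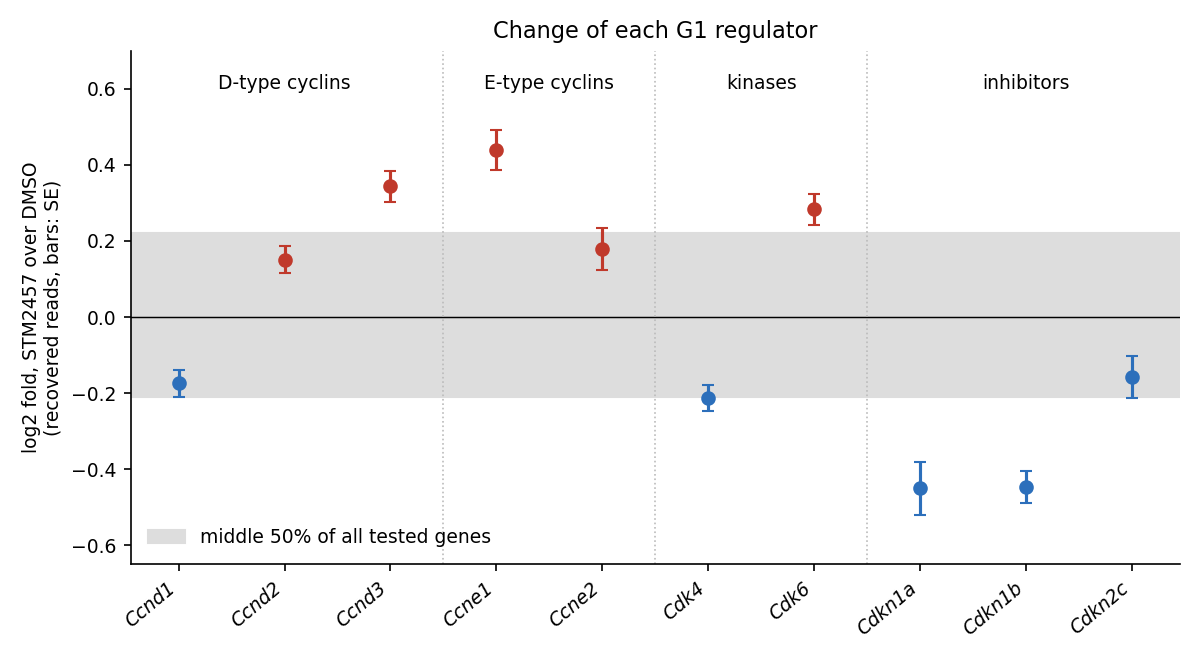
Log2 fold of each of the 10 genes, STM2457 over DMSO, from recovered reads (vertical axis; points, with bars for the SE; red higher, blue lower), with the middle 50% of all tested genes as a grey band from -0.21 to 0.22. Cdkn1a and Cdkn1b at -0.45 and Ccne1 at 0.44 lie farthest from 0, and Ccnd3 and Cdk6 also lie outside the band. Cdk4, at -0.21, lies at its lower edge.

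Compared per exon length, the order with DMSO was Cdk4 (3398 normalised reads per kb), Cdkn1a (1529), Ccnd1 (1180), Ccnd2 (444), Cdkn1b (422), Ccnd3 (390), Ccne1 (332), Cdkn2c (248), Ccne2 (205) and Cdk6 (126), and no neighbours in that order overlapped. With STM2457, Cdk4 (2935), Cdkn1a (1114) and Ccnd1 (1046) still led and Cdk6 (153) was still last. In between, Cdkn1b (309) had dropped below Ccne1 (450), and Ccnd3 (495) had drawn level with Ccnd2 (493). Ccne2 (232) and Cdkn2c (222) had changed places, but their libraries overlapped, as did those of Ccnd3 and Ccnd2. These positions rest on the summed length of all annotated exons of a gene. That length was 8775 bases for Ccnd3, against 2113 in the transcript used for GGACT below, but 4552 bases by both for Cdkn1b. An order by transcript length was not computed and may differ, above all for Ccnd3.

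As STM2457 inhibits the m6A writer, the transcripts are shown at GGACT, the core letters of the preferred m6A sequence. The libraries hold no measurement of m6A, so these are letters, not methylated sites. Each window below is the match nearest to the last coding base, since m6A is concentrated around stop codons, for the genes with the largest changes and for Ccnd1 (GENCODE M21 transcripts, GRCm38), with GGACT in capitals.
Ccnd1: agtgtgacccGGACTgcctccgtgc
Ccnd3: gcactgaagtGGACTgcctgcgagc
Ccne1: ttgacccactGGACTcttcacacag
Cdkn1a: aaaatgagtaGGACTttggggtctc
Cdkn1b: gcagaccccaGGACTgctggcagat
The windows of Ccnd1 (chr7:144932758-144934026, minus strand) and Ccnd3 (chr17:47598129-47598622, plus strand) are in coding sequence, each across an exon junction, with GGACT beginning 162 and 165 bases before the last coding base. Those of Ccne1 (chr7:38098230-38098254, minus strand), Cdkn1a (chr17:29099839-29099863, plus strand) and Cdkn1b (chr6:134922147-134922171, plus strand) are in the 3′ untranslated region, 274, 459 and 86 bases after it.

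The number of GGACT in 1 transcript per gene was 9 in Cdk6, 6 in Ccnd2, 4 in Cdkn1a, 3 each in Ccnd1, Ccnd3, Ccne1, Cdkn1b and Cdkn2c, 2 in Ccne2 and 0 in Cdk4. Per kb, Cdkn1a had the most (1.92), followed by Ccne1 (1.5) and Ccnd3 (1.42), and Ccne2 (0.67) and Cdkn1b (0.66) had the fewest after Cdk4. Over the transcripts of 11013 tested protein-coding genes the median was 1.04 per kb, the middle 50% ran from 0.64 to 1.52, and 92.1% held at least 1. Cdkn1a and Cdkn1b stood at the 86.9th and 26.3rd percentile of that density.

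Among 11 other cyclins, kinases and inhibitors of G1 and S phase, 7 were tested, of which 3 rose, 1 fell and 3 did not pass. Cdc25a, the phosphatase that activates CDK2, rose from 852 ± 6.18 to 1225 ± 51.7 normalised reads (SD, n = 3; 1.44 times, limma adjusted p = 1.6e-09). Of the CDK-activating kinase, Cdk7 rose to 1.14 times (limma adjusted p = 0.0024) and its assembly factor Mnat1 fell to 0.846 times (0.00013). Cdk2 passed at 1.08 times (limma adjusted p = 0.049), with overlapping groups. Ccna2, the S-phase cyclin, did not pass (4491 ± 236 against 4307 ± 106 normalised reads; adjusted p = 0.21), nor did Ccnh (0.16), and both were named after their values were seen.

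In the list of RB pocket proteins, E2F factors and the DREAM complex, which lie downstream of the 10 genes, 7 of 18 rose, 6 fell and 5 did not pass, with a median fold of 1.01. Rb1 itself had 262, 264 and 271 recovered reads with DMSO and 169, 145 and 143 with STM2457. It fell to 0.569 times, with no overlap (limma adjusted p = 3.4e-08). The activating E2F gene E2f3 rose to 1.28 times (limma adjusted p = 4.3e-07) and the repressive E2f8 to 1.30 times (4.8e-08), whereas E2f5, which works with the pocket proteins, fell to 0.731 times (1.5e-06). Of the named genes with reads in this and the other lists, Rb1, E2f5, E2f8, Ccna2, Ccnh, Cdk2, Cul1, Ddb1, Cdc45, Orc1, Slbp, Cdc20, Plk1, Kif20a, Ube2c, Jund and Ctnnb1 share exon bases with a gene on the opposite strand. Part of their reads may belong to that gene.

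E2F target genes of S-phase entry were called higher in 15 of 25 and lower in 3, and 7 did not pass, with a median fold of 1.12 (median log2 fold 0.16, against 0.01 over all tested genes). The replication licensing gene Cdc6 rose from 987 ± 78.1 to 1510 ± 52.8 normalised reads (SD, n = 3; 1.53 times, limma adjusted p = 4.2e-10). The histone chaperone gene Chaf1b rose to 1.47 times (limma adjusted p = 1.1e-09), the origin recognition gene Orc1 to 1.47 times (6.6e-07) and the histone mRNA-binding gene Slbp to 1.30 times (1.3e-07). The 3 that fell, named here after their values were seen, were Cdc45 (0.887 times), Pola1 (0.833) and Dut (0.876), which act in replication and nucleotide supply too.

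Of 18 genes of G2 and mitosis 7 rose, 4 fell and 7 did not pass, with a median fold of 1.04. The mitotic kinase genes Aurka and Plk1 rose to 1.42 times (limma adjusted p = 6.3e-11) and 1.43 times (6.5e-10), the kinesin gene Kif20a to 1.38 times (1.3e-09) and Cdc20, an activator of the anaphase-promoting complex, to 1.29 times (3.0e-08). The 4 that fell, named here after their values were seen, were Top2a (0.811 times), Ccnb2 (0.835), Kif11 (0.879) and Ube2c (0.931, with overlapping groups). In the list for turnover of G1 cyclins and inhibitors 4 of 16 rose, 2 fell and 10 did not pass, with a median fold of 0.998. Skp2, whose protein targets p27 for degradation, passed at 1.10 times with overlapping groups (limma adjusted p = 0.017), and its scaffold gene Cul1 rose to 1.18 times (8.7e-06). Dtl, of the ligase that degrades p21, rose to 1.09 times (limma adjusted p = 0.013), and Ddb1, of the same ligase, fell to 0.926 times (0.014).

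**Figure D4:**
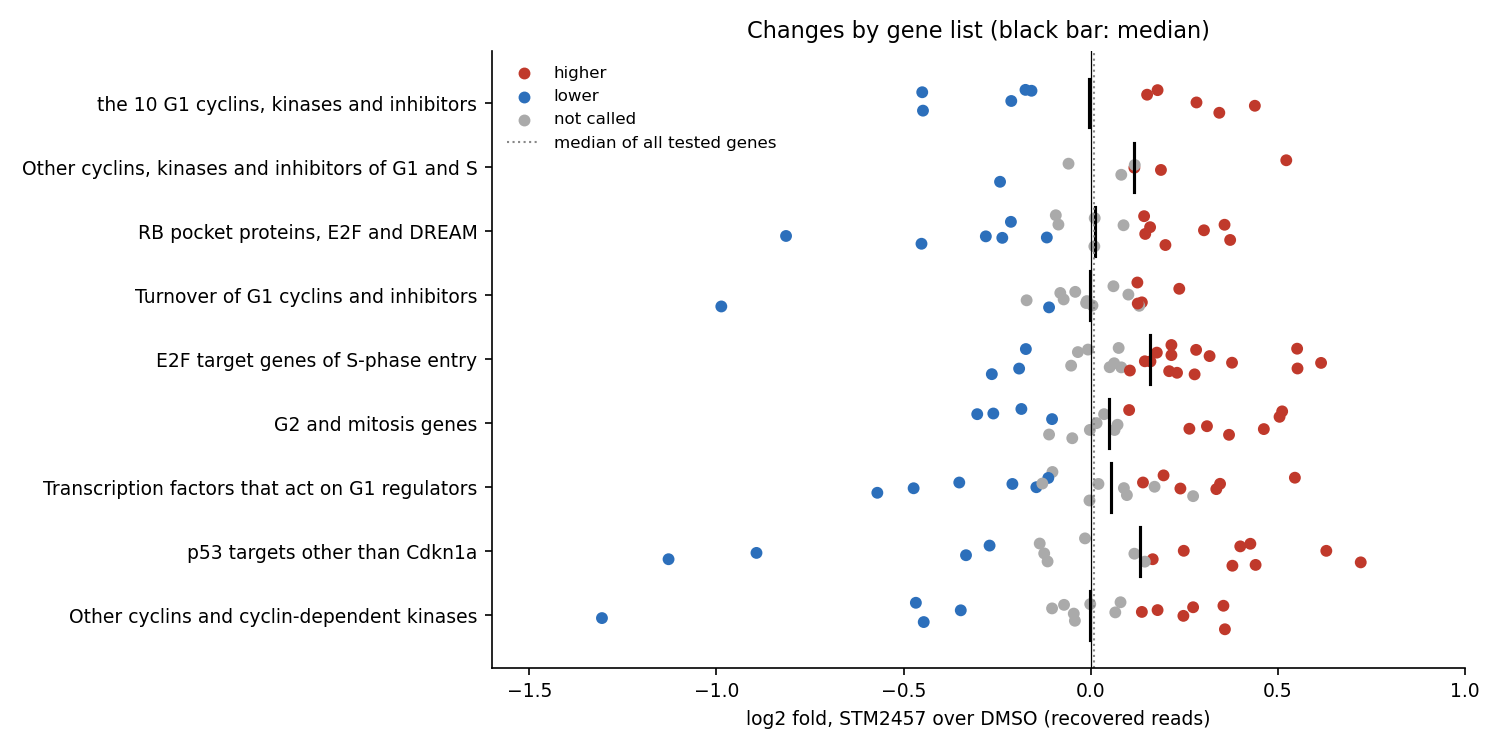
Log2 fold of every tested gene of each list, STM2457 over DMSO, from recovered reads (horizontal axis; points coloured by call; black bar, the list's median; dotted line, the median of all tested genes). No list has a median above 0.16, while single genes reach from -1.31 (Ccng2) to 0.72 (Phlda3).

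The transcription factors known to act on G1 regulators were tested in 20 of 22 cases, of which 6 rose, 6 fell and 8 did not pass, with a median fold of 1.04. Jund rose to 1.46 times (limma adjusted p = 9.9e-09), Rela to 1.27 times (4.8e-08), Ctnnb1 to 1.14 times (0.00013) and Trp53 from 4944 ± 204 to 5836 ± 123 normalised reads (SD, n = 3; 1.18 times, 9.4e-06). Myc, an activator of D-type cyclin and Cdk4 transcription and a repressor of Cdkn1a, was named after its values were seen. It had 11116, 14441 and 13231 recovered reads with DMSO and 8747, 8668 and 8752 with STM2457, all of the treated libraries being lower (0.674 times; limma adjusted p = 0.0032).

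Cdkn1a is a standard target of p53, and it went down while Trp53 RNA went up. Of 18 other p53 targets tested, from a list of 20, 8 rose, 4 fell and 6 did not pass, with a median fold of 1.10. Phlda3, an inhibitor of AKT, rose to 1.65 times (1217 ± 46.6 against 2008 ± 95.4 normalised reads, SD, n = 3; limma adjusted p = 3.1e-12). The nuclease gene Aen rose to 1.55 times (limma adjusted p = 1.3e-10) and the death receptor gene Tnfrsf10b to 1.34 times (1.8e-06). Sesn2, which the stress factor ATF4 also induces, fell to 0.458 times (limma adjusted p = 8.0e-10). With upper-quartile centring the balance turned, with 5 of the 18 higher and 7 lower.

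Cyclins and cyclin-dependent kinases with roles outside G1 were divided as well, with 6 of 17 higher, 4 lower and 7 not passing and a median fold of 0.999. Ccng2, a cyclin of growth arrest that FOXO factors induce, had 1256, 1095 and 1302 recovered reads with DMSO and 482, 453 and 553 with STM2457. It fell to 0.405 times, with the groups far apart (limma adjusted p = 4.2e-09). Ccni fell to 0.724 times (limma adjusted p = 1.8e-10), and of the transcription elongation factor P-TEFb the cyclin gene Ccnt2 fell to 0.734 times (1.2e-08) while the kinase gene Cdk9 rose to 1.28 times (7.0e-08).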

How the data were processed

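RNA from 6 LLC samples, 3 per treatment in the labels, was sequenced (SMARTER mRNA-Seq libraries). The submitters' processing notes name HISAT2 2.2.1, featureCounts 2.0.1 (Subread), DESeq2, FastQC 0.11.9 and the build GRCm38. Annotation, strand use and transform were not given in the sources used here. In the table that the authors deposited, values are log2, with 1 row per gene symbol. From the values, they have the form of a regularised log2 transform, which shrinks differences (59.9% of a log2 difference is kept at the highest counts).

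Genes with a mean of at least 3.32 (the log2 of 10 reads; 12618 genes) entered a limma fit (version 3.58.1, R 4.3.3; mean-variance trend, robust prior with statmod 1.5.0), group as the only term, no pseudocount, Benjamini-Hochberg adjustment over all tested genes, threshold 0.05. For levels and folds the transform was inverted: 98.9% of the values of 17546 genes with a mean under 500 came out whole to within 0.05 reads, against 89.6% from 500 to under 2000 and 67.7% above. All 10 genes have means above 500 and lay up to 0.49 reads from a whole number, so whole numbers are no test of their recovery, and their reads are given to the nearest read. Normalised reads are recovered reads divided by size factors of 0.995 to 1.009, and limma-voom fitted the folds. Reads per kb use the summed length of all annotated exons of a gene in GENCODE M21, which can be longer than any single transcript. Limits for a count of 0 are 3 reads and cover counting error only.

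On simulated data for STM2457 against DMSO (12623 genes, 200 changed), limma recovered 99 of 100 genes with a simulated log2 fold of 1. With 0.5 it recovered 91 of 100, and it called 2 of 12423 unchanged genes. The simulated dispersion (spread beyond counting error) was 0.0005. Far fewer genes changed there than the 56.3% called in the real data, so the simulation gives no false-call rate for the real data. Both simulated sizes exceed the folds of the 10 genes (largest, Cdkn1a at -0.45), so recovery of folds this small was not tested. Named genes are the 10 regulators, Mettl3, up to 4 genes of smallest adjusted p per list, and the 3 genes most like the regulator of smallest adjusted p; others are marked. Transcripts for the motif count were basic protein-coding ones, best by APPRIS rank, then longest coding sequence. The genes and lists were chosen with earlier results of these data known. Alternatives were limma-voom on recovered reads, upper-quartile centring, no filter, a filter at 50 reads, a prior without trend or robust fit, the replicate number as a block, and leaving out each library.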

Additional observations from a re-analysis of the deposited data

How the results depend on the processing

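Over 12 alternatives the 10 genes gave 120 results, of which 114 kept direction and call, 6 kept direction but lost the call, and 0 reversed. The 6 were 3 each of Ccne2 and Cdkn2c, given with those genes, and the other 8 genes kept every call. Mettl3 passed only with upper-quartile centring (adjusted p = 0.04) and without DMSO replicate 1 (0.0089). Upper-quartile centring changed the counts of every list beyond the 10 genes. Other G1 and S genes were higher in 2 and lower in 2, turnover genes in 1 and 6, and E2F targets in 13 and 5. The p53 targets were higher in 5 and lower in 7, and the RB, E2F and DREAM genes in 5 and 8. Genes of G2 and mitosis were higher in 6 and lower in 6, transcription factors in 5 and 8, and other cyclins and cyclin-dependent kinases in 5 and 6. By its construction this centring shifts the difference between STM2457 and DMSO by the same amount for every gene. In these data the shift was downward. The filter at 50 reads left 1 turnover gene lower. Leaving out single libraries gave ranges of 1 to 3 for turnover genes lower (1 without DMSO replicate 1 or any of STM2457 replicates 1 to 3, and 3 without DMSO replicate 2), 2 to 4 for turnover genes higher (2 without DMSO replicate 2 or 3 or STM2457 replicate 3), 1 to 2 for other G1 and S genes lower (2 without DMSO replicate 2) and 3 to 6 for transcription factors lower (3 without STM2457 replicate 1); the cause was not tested. Undivided by length, the Cdk4 share differed by -4.59 percentage points, because Cdk6 has the longer exons. No clear pairing by replicate number was seen. Deviations of same-numbered libraries correlated at 0.05, 0.01 and 0.04, against -0.06 to 0.02 for the others, and not every library correlated best with its own number. With 3 libraries per group, such values cannot exclude a pairing. With the number as a replicate block 3864 genes were higher and 3226 lower, against 3868 and 3240, and all 10 genes were called. With 3 libraries per group, no share could reach an exact p under 0.1.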
